A study of Mus musculus with 15 samples.

Results

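The genes of klotho, vitamin D and calcium handling were examined in kidneys of male wild-type C57BL/6 mice, which were 8 weeks old when bought. The set held 10 genes chosen by name, Kl, Fgfr1, Cyp27b1, Cyp24a1, Vdr, Trpv5, Calb1, S100g, Pth1r and Slc8a1, of which 9 (not Slc8a1) were among the 13940 genes with an annotated transcript in all 15 kidneys. Of the 10 genes, 8 passed the filter on low values (at least 1 FPKM in at least 5 mice) and were tested among 12372 genes. FPKM scales a transcript's fragments by its length and by the library's total. Each gene's level is the sum over those of its transcripts that were listed in all 15 mice. Each group had 5 mice. Control mice had saline pumps and were gavaged with water. Ang II mice received angiotensin II, a hormone that raises blood pressure, from osmotic pumps at 500 ng/kg/min for 28 days, also with water by gavage. Mice of the Ang II + QDG group, named the QDG group from here on, had the same infusion and 1.145 g/kg/day of Qingda granule (QDG), a Chinese herbal formula, by gavage. A limit of this model is that the hormone was pumped at a constant rate, and each library is a bulk kidney sample from 1 mouse.

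Klotho, made mostly in the distal nephron, is the co-receptor through which the bone hormone FGF23 acts with FGF receptors, and FGF23 lowers phosphate reabsorption and active vitamin D. The mitochondrial enzyme encoded by Cyp27b1 makes the active hormone calcitriol in the proximal tubule, the enzyme encoded by Cyp24a1 degrades it, and Vdr encodes its nuclear receptor. Parathyroid hormone, acting on the receptor encoded by Pth1r, raises Cyp27b1 and lowers phosphate reabsorption, while in the distal tubule calcium enters through Trpv5, is carried by the calbindins of Calb1 and S100g and leaves through exchangers such as that of Slc8a1.

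The sequences upstream of Cyp27b1 and of the Pth1r starts are shown because these were the member genes that passed the test in Ang II vs. Control. They come from RefSeq (GRCm38.p6), read 5′ to 3′ on the gene's strand and end 1 base before the RefSeq start or before the first GENCODE start in the window. Promoter windows were matched for 7 of the 10 members. Capitals mark, on either strand, 3 promoter elements. These are a variant of the TATA box spelled TATATA, the box named for its letters CCAAT, and the GC box, whose letters are GGGCGG.
Cyp27b1, chr10:127047996-127048245, plus strand: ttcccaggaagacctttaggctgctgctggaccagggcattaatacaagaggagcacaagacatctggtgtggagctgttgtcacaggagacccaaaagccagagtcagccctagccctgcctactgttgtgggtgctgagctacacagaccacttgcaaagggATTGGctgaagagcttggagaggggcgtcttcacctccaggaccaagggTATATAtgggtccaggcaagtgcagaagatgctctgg
Pth1r downstream start, chr9:110742720-110742860, minus strand: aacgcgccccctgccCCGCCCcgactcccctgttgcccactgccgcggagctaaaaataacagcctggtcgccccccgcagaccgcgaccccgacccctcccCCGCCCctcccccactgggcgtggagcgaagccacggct
Pth1r middle start, chr9:110743687-110743936, minus strand: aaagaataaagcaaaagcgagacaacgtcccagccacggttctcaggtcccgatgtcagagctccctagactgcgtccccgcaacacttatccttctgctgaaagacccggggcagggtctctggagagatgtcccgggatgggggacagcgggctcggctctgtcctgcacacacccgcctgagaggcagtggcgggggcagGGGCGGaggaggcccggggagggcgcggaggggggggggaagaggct
Pth1r upstream start, chr9:110747146-110747395, minus strand: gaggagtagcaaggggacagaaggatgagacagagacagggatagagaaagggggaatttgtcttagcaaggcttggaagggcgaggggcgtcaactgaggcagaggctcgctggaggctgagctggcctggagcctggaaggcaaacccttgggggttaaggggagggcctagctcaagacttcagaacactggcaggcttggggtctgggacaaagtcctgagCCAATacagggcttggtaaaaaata
In the Cyp27b1 window TATATA began 37 bases, and CCAAT on the opposite strand 86 bases, before the window's end. The downstream Pth1r window held GGGCGG on the opposite strand at 126 and 39 bases before its end, the middle window held it at 47 bases, and the upstream window held CCAAT at 25 bases. Over the 250 bases upstream of 32851 mouse starts, on either strand, TATATA was present in 5.25% and the usual TATA box, TATAAA, which none of the windows shown holds, in 12.4%. The CCAAT box was present in 33.9% and the GC box in 32.7% of them, so both are common in such windows. The half-site of the cAMP response element, TGACG, is in 17.8% of all starts' windows and, of the windows shown, only on the opposite strand of the upstream Pth1r window, 161 bases before its end. The full element was searched too, as was the half-site of the vitamin D receptor as AGGTCA (14.0% of windows), as GGTTCA (8.85%) or as AGTTCA (11.8%), and the windows shown hold none of these. A match is a description of the letters, not a binding site.

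Among Control kidneys the order of levels per length was S100g (350 FPKM), Pth1r (226 FPKM), Kl (175 FPKM), Calb1 (76.0 FPKM), Vdr (62.9 FPKM), Cyp24a1 (50.4 FPKM), Cyp27b1 (9.55 FPKM) and Trpv5 (4.37 FPKM). The ranges of neighbours overlapped for S100g and Pth1r, for Calb1 and Vdr and for Vdr and Cyp24a1, and did not overlap for the other neighbours. Fgfr1, the receptor partner of klotho, was not tested, because only 4 mice reached 1 FPKM in the sum over transcripts listed in every mouse. Its summed level was 0, 3.63, 0.274, 0 and 0 FPKM in Control mice 1 to 5, 4.57, 0, 0.123, 0.0635 and 0 FPKM in Ang II mice 1 to 5, and 4.36, 2.15, 0.318, 0.357 and 0.219 FPKM in QDG mice 1 to 5. The high and low values of these sums thus occurred in all groups, and a listed 0 can be a failed estimate of a transcript. Fgfr1-202 and Fgfr1-206 were listed only in the infused groups and so were left out of the sums. Ang II mouse 2, at 0 in the sum, had 1.09 FPKM of Fgfr1-206, so leaving Fgfr1 untested depended on how transcripts were summed. QDG mouse 1 had 4.35 FPKM of Fgfr1-202 and 2.08 FPKM of Fgfr1-206 beside its sum. Slc8a1, the sodium-calcium exchanger, had no listed transcript and was not analysed here. Mouse numbers only name the mice.

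Facts of the libraries bear on all results. The implied totals were 68922860 to 81329480 fragments per mouse. They were lower in QDG (median 70028765) than in Control (median 79345327) and Ang II (median 79124001). Ang II mouse 2 was among the 2 highest Ang II mice in all 8 tested members and Ang II mouse 5 in 5 of them (Kl, Cyp27b1, Trpv5, Calb1 and S100g), so Ang II values are also given below without these mice. Their levels of Slc12a3, the sodium chloride cotransporter of the distal convoluted tubule, were 142 and 130 FPKM against 51.2 to 84.0 FPKM in the other Ang II mice. The proximal tubule list (10 of 10 markers listed) summed to 4460 to 5412 FPKM across Control mice, to 4674 to 5914 FPKM across Ang II mice and to 4488 to 5590 FPKM across QDG mice. The distal list holds 4 of the genes under study (Calb1, Trpv5, S100g and Slc8a1), and without them its 6 markers, all listed, summed to 121 to 193, 132 to 286 and 139 to 267 FPKM, with 286 and 264 FPKM in Ang II mice 2 and 5. Other nephron and stromal markers (13 of 13) summed to 1258 to 1759, 990 to 1643 and 1451 to 2038 FPKM, and blood and lymphoid markers (6 of 10, with Cd3e, Ms4a1 and Cd79a among those not listed) to 546 to 1362, 1116 to 1944 and 1559 to 2819 FPKM. Adipose markers (6 of 7, without Lep) summed to 26.7 to 149, 25.1 to 250 and 40.1 to 86.0 FPKM, 1 of 7 adrenal markers was listed, at 0.692 to 1.45 FPKM, and 0 of 6 skeletal muscle markers was. Renin (Ren1), which Ang II infusion is known to lower, had a gene-level log2 fold change of −0.18 in Ang II vs. Control (limma adjusted p = 0.718), so it did not check the labels.

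The comparison of Ang II vs. Control asks what the hormone infusion did to these genes. Cyp27b1 and Pth1r rose, and the other 6 tested members did not pass the test. That is 2 of 8 members at an adjusted p under 0.05 from limma (Benjamini-Hochberg over all genes), where 5.94% of all tested genes were called and 4.95% were called higher. Before adjustment 3 members, the same 2 and Cyp24a1, had a p under 0.05, against 22.7% of all genes. The median log2 fold change was 0.19 over the 8 members and 0.083 over all tested genes. The 83.3% of called genes that were higher became 45.9% with quantile normalization and 42.6% with median scaling, and in both of these scalings 0 members were called. There the log2 fold change of Cyp27b1 was 1.38 in both (adjusted p = 0.0634 and 0.0658) and that of Pth1r was 0.21 and 0.19 (adjusted p = 0.140 and 0.260).

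Cyp27b1 (ENSMUSG00000006724, chromosome 10, 127048250 to 127053006 on GRCm38, plus strand) was the member with the largest fold change in this comparison. It was at 9.43, 10.4, 7.79, 9.08 and 11.0 FPKM in Control mice 1 to 5. Ang II mice 1 to 5 had 18.0, 51.0, 12.4, 24.4 and 59.8 FPKM. QDG mice 1 to 5 had 26.4, 21.2, 17.2, 8.26 and 10.7 FPKM. Every Ang II mouse was above every Control mouse, and the Ang II mice varied far more among themselves (33.1 ± 21.01 FPKM, SD, n = 5) than the Control mice did (9.55 ± 1.26 FPKM, SD, n = 5). The log2 fold change of FPKM + 1 was 1.47 (SE 0.39, limma adjusted p = 0.0428), and the two-sided exact permutation test gave p = 0.00794, the smallest that 5 against 5 allows. In a bulk kidney, more cells that make a transcript and more transcript per cell cannot be told apart. Without Ang II mice 2 and 5 the log2 fold change was 0.83 and the call was lost (adjusted p = 0.210), while the remaining Ang II mice still lay above all Control mice. With 1 mouse left out, the log2 fold change was 1.20 to 1.74 with an adjusted p of 0.0211 to 0.0997, and the call held only without Ang II mouse 1 or 3 or QDG mouse 1 or 4.

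Nearly all of the Cyp27b1 level came from the coding transcript Cyp27b1-201 (9 exons), with a mean of 99.3% in Control, 98.1% in Ang II and 99.4% in QDG. The short transcript Cyp27b1-202 reached 2.70 FPKM in Ang II mouse 2 and was at or under 0.817 FPKM in every other mouse. At transcript level Cyp27b1-201 had a log2 fold change of 1.45 in Ang II vs. Control (limma adjusted p = 0.0891).

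Cyp24a1 (ENSMUSG00000038567, chromosome 2, 170482708 to 170497145, minus strand), whose enzyme degrades calcitriol, was at 67.3, 65.7, 35.9, 32.9 and 50.1 FPKM in Control mice 1 to 5. Ang II mice 1 to 5 had 40.8, 44.9, 16.3, 11.6 and 15.2 FPKM, while QDG mice 1 to 5 had 18.7, 27.3, 19.0, 7.77 and 31.1 FPKM. Ang II mice 1 and 2 lay inside the Control range and the other 3 below it, whereas all QDG mice lay below the Control range. Cyp24a1 had a log2 fold change of −1.09 in Ang II vs. Control (SE 0.41, limma adjusted p = 0.133, two-sided exact permutation p = 0.0635), which passes the fold of 2 and the unadjusted p under 0.05 that the study used but not the adjusted test. By that threshold 2 of 8 members, Cyp27b1 and Cyp24a1, were counted, against 1.05% of all tested genes. That count was 1 without either of Control mice 1 and 2, without any of Ang II mice 3, 4 and 5, or without Ang II mice 2 and 5 together.

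The level of Cyp27b1 relative to Cyp24a1 within a mouse is given as a description, with no test. The ratio of their FPKM was 0.140, 0.159, 0.217, 0.276 and 0.221 in Control mice 1 to 5. It was 0.442, 1.14, 0.758, 2.11 and 3.93 in Ang II mice 1 to 5, and 1.41, 0.777, 0.909, 1.06 and 0.343 in QDG mice 1 to 5. All 5 Control ratios lay below all ratios of the other groups, and the ratios of the Ang II and QDG mice overlapped.

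**Figure D1:**
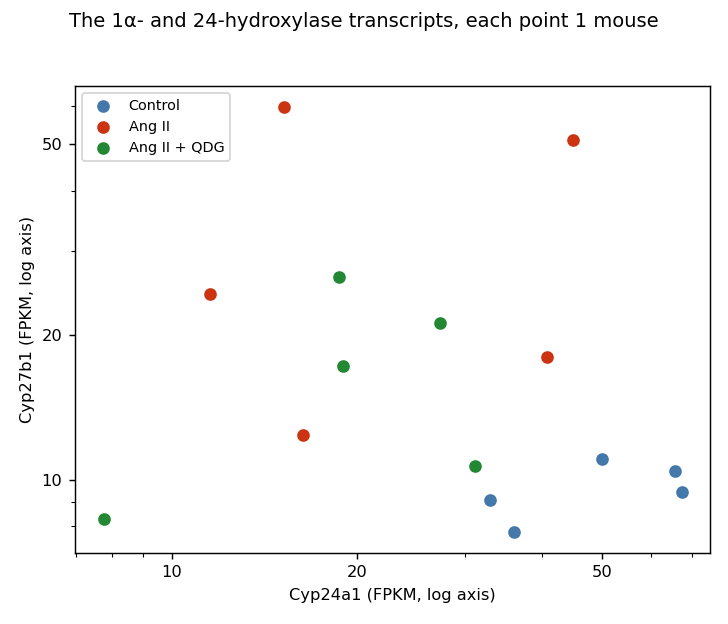
Cyp27b1 (vertical, FPKM, log axis) against Cyp24a1 (horizontal, FPKM, log axis), each point 1 mouse and each colour a group. The 5 Control mice sit at the lower right, with 7.79 to 11.0 FPKM of Cyp27b1 and 32.9 to 67.3 FPKM of Cyp24a1, and every other mouse lies up or left of them.

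Pth1r (ENSMUSG00000032492, chromosome 9, 110722085 to 110747145, minus strand), the receptor of parathyroid hormone, was at 231, 197, 250, 223 and 228 FPKM in Control mice 1 to 5. Its level in Ang II mice 1 to 5 was 251, 299, 310, 253 and 262 FPKM, and QDG mice 1 to 5 had 243, 226, 209, 227 and 232 FPKM. The Ang II mice lay above all other mice, by a narrow margin over the highest Control mouse (249.7 against 250.6 FPKM), and the Control and QDG mice overlapped. Pth1r had a log2 fold change in Ang II vs. Control of 0.28 (SE 0.075, 1.22-fold, limma adjusted p = 0.0413, two-sided exact permutation p = 0.00794). Without Ang II mice 2 and 5 it was 0.26 and the call was lost (adjusted p = 0.158). With 1 mouse left out the adjusted p ranged from 0.0409 to 0.0968, and the call held only without Control mouse 3, Ang II mouse 1 or 4, or QDG mouse 1 or 3.

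The groups of 2 members, Cyp27b1 and Pth1r, did not overlap in Ang II vs. Control, where 7.91% of all tested genes had groups that did not overlap. Both are expressed in the proximal tubule, and the proximal tubule marker sums given above overlapped between the groups. Of those 10 markers 4 were higher and 6 lower, with a median log2 fold change of −0.030. By limma 0 were called, 4 had an unadjusted p under 0.05, against 22.7% of all genes, and the groups of 1 did not overlap. Of 13 other nephron and stromal markers 2 were called higher, against 4.95% of all genes. A change in the share of proximal tubule cells was not tested.

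Transcripts of Pth1r were listed from all 3 of the starts shown above. The downstream start (Pth1r-201, 14 exons, 110722142 to 110742719) carried most of the gene's FPKM, a mean of 79.5% for the Control mice and 79.0% for either infused group. Its level was 157 to 199 FPKM in Control, 199.7 to 235 FPKM in Ang II and 167 to 195 FPKM in QDG, so that the Ang II mice lay above both other groups. The upstream start (Pth1r-204, Pth1r-205 and Pth1r-206 together) ranged from 34.0 to 44.7, 37.0 to 64.7 and 35.9 to 43.3 FPKM, and these ranges overlapped.

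Pth1r-203, from the middle start (7 exons, 110727458 to 110743648), was a small part of the gene. It was at 5.92, 5.72, 6.12, 6.16 and 5.50 FPKM in Control mice 1 to 5. In Ang II mice 1 to 5 it was at 9.67, 12.6, 10.3, 7.45 and 11.8 FPKM, and in QDG mice 1 to 5 at 9.43, 10.2, 6.24, 7.49 and 12.3 FPKM. Both infused groups lay wholly above the narrow Control range and overlapped each other. Its log2 fold change was 0.70 in Ang II vs. Control (SE 0.16, limma adjusted p = 0.0602), 0.53 in QDG vs. Control (adjusted p = 0.315) and −0.18 in QDG vs. Ang II (adjusted p = 0.733). Of 14 member transcripts tested, 0 were called by limma in Ang II vs. Control, against 0.691% of 28812 transcripts, and 5 had an unadjusted p under 0.05 (Pth1r-201, Pth1r-203, Cyp27b1-201, Cyp24a1-201 and Kl-202), against 15.9% of all transcripts. In QDG vs. Ang II 0 were called against 0.0972%, with 3 at an unadjusted p under 0.05 against 11.3%, and in QDG vs. Control 0 were called against 0.0243%, with 2 below that unadjusted p against 10%.

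**Figure D2:**
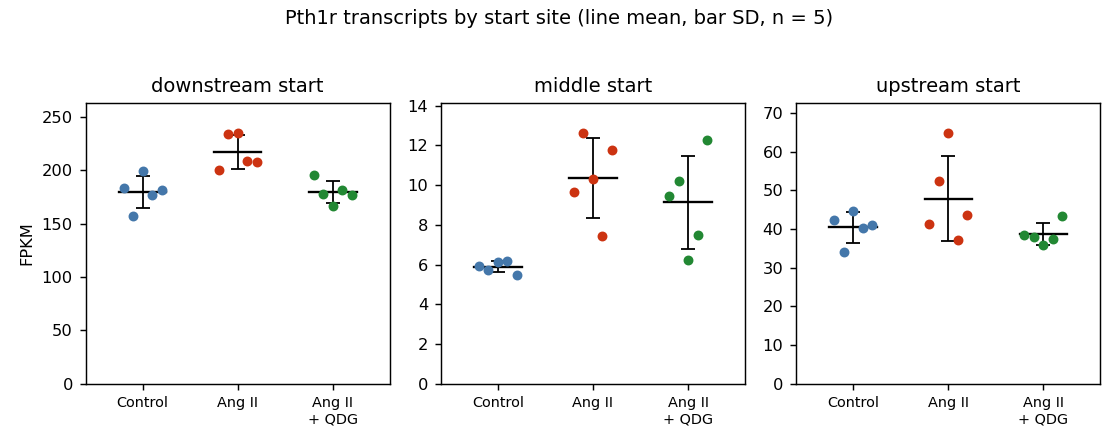
Pth1r FPKM by annotated start site for each mouse, with the group mean as a line and the SD as a bar (n = 5). The downstream start is highest in Ang II at 199.7 to 235 FPKM, while at the middle start both Ang II groups lie above the Control mice.

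Kl (ENSMUSG00000058488, chromosome 5, 150952607 to 150993817, plus strand) encodes klotho. It was at 184, 160, 183, 184 and 166 FPKM in Control mice 1 to 5. Infused Ang II mice 1 to 5 had 171, 211, 187, 177 and 216 FPKM, and QDG mice 1 to 5 had 175, 159, 147, 175 and 158 FPKM. Each pair of groups overlapped, and Ang II mice 2 and 5 were the highest of all mice. Kl had a log2 fold change in Ang II vs. Control of 0.13 (95% confidence interval −0.030 to 0.29, limma adjusted p = 0.324), and of 0.029 without those mice. Its retained-intron transcript Kl-202 made up 0.836% to 1.35% of the Kl level in Control, 1.13% to 2.86% in Ang II and 0.478% to 1.87% in QDG. The transcript's own log2 fold change of 0.63 did not pass the test (adjusted p = 0.246).

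Vdr (ENSMUSG00000022479, chromosome 15, 97854425 to 97910630, minus strand), the calcitriol receptor, overlapped between all groups. It was at 56.4 to 73.2 FPKM in Control (median 62.4), 58.4 to 68.8 FPKM in Ang II (median 59.8) and 53.5 to 72.7 FPKM in QDG (median 58.0). The log2 fold changes were −0.035 (95% confidence interval −0.23 to 0.16) in Ang II vs. Control, −0.011 (−0.21 to 0.19) in QDG vs. Ang II and −0.046 (−0.24 to 0.15) in QDG vs. Control.

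Of the distal calcium transport members, Trpv5 (ENSMUSG00000036899, chromosome 6, 41652173 to 41680769, minus strand), the apical calcium channel, was low. It was at 5.96, 3.65, 3.98, 4.37 and 3.87 FPKM in Control mice 1 to 5, at 4.44, 8.32, 4.31, 3.66 and 7.16 FPKM in Ang II mice 1 to 5, and at 3.79, 5.33, 3.69, 3.61 and 3.22 FPKM in QDG mice 1 to 5. Ang II mice 2 and 5 alone lay above the Control range, and the groups overlapped. Trpv5 had a log2 fold change of 0.26 in Ang II vs. Control (SE 0.19, limma adjusted p = 0.459), and −0.051 without those mice.

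Calb1 (ENSMUSG00000028222, chromosome 4, 15881264 to 15908064, plus strand) encodes the larger calbindin, which ferries calcium through distal cells. It was at 86.4, 67.1, 75.0, 93.6 and 57.8 FPKM in Control mice 1 to 5. Its level in Ang II mice 1 to 5 was 50.9, 106, 83.1, 54.3 and 102 FPKM, and QDG mice 1 to 5 had 58.6, 78.7, 50.2, 80.4 and 42.3 FPKM. The Ang II mice fell on both sides of the Control range, with mice 2 and 5 above it and mice 1 and 4 below. The log2 fold change was 0.015 (SE 0.24, limma adjusted p = 0.981), and its sign turned under all 3 other scalings (−0.053 with quantile normalization, −0.076 with median scaling and −0.0011 when scaled to annotated nuclear transcripts) and without Ang II mice 2 and 5 (−0.29).

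S100g (ENSMUSG00000040808, chromosome X, 162961992 to 162964599, minus strand), the smaller calbindin, was the most abundant member and varied widely within groups. It was at 500, 232, 289, 274 and 454 FPKM in Control mice 1 to 5. In Ang II mice 1 to 5 it was at 368, 655, 328, 281 and 561 FPKM, and in QDG mice 1 to 5 at 429, 422, 265, 541 and 324 FPKM. All groups overlapped, and Ang II mice 2 and 5 were again highest. The log2 fold change was 0.31 (SE 0.28, limma adjusted p = 0.544) in Ang II vs. Control, and −0.046 without Ang II mice 2 and 5.

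**Figure D3:**
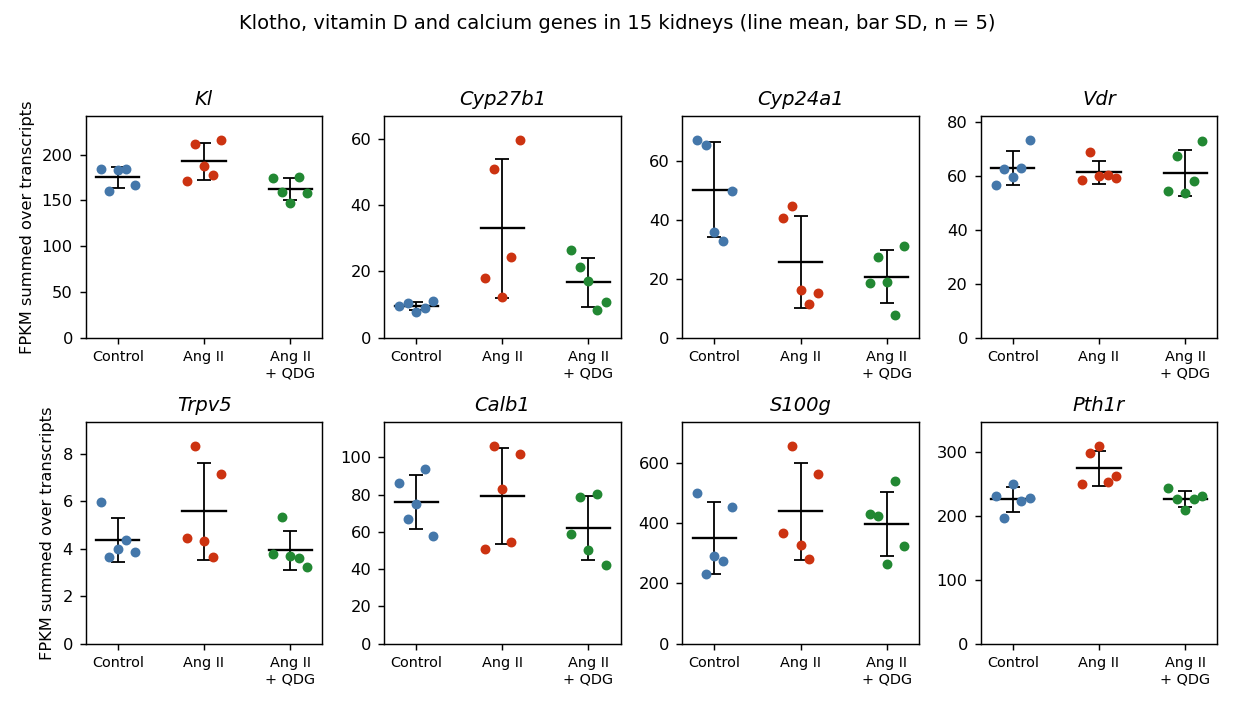
FPKM summed over transcripts (vertical, from 0) for each of the 8 tested members in the 3 groups, each point 1 mouse, with the group mean as a line and the SD as a bar (n = 5). Cyp27b1 in Ang II, at 12.4 to 59.8 FPKM, lies above all Control mice, and Vdr overlaps fully between groups.

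The comparison of QDG vs. Ang II asks what the granule did in infused mice, and it shares the 5 Ang II mice with the comparison above. All 8 tested members had a negative log2 fold change, with a median of −0.25 against −0.019 over all tested genes, but 0 were called by limma, where 1.81% of all tested genes were called. In this comparison 2 members had an unadjusted p under 0.05, against 16.4% of all genes, and 1 had groups that did not overlap, against 5.00%. Of the 8, 0 passed the study's threshold, against 0.816%. Ang II mouse 2 was among the 2 highest Ang II mice in every tested member. The sign of S100g turned without Ang II mice 2 and 5 (0.25), as did that of Vdr (0.029). The other tested members stayed negative without them, with Pth1r at −0.25. What made all 8 signs negative was not tested.

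Pth1r had the smallest p of the members. Its log2 fold change was −0.27 (SE 0.075, fold 0.830, limma adjusted p = 0.0803, two-sided exact permutation p = 0.00794), every QDG mouse lying below every Ang II mouse. Kl was at 163 ± 11.9 FPKM in QDG against 193 ± 20.1 FPKM in the Ang II group (SD, n = 5 each), giving −0.24 on the log2 scale (SE 0.075, limma adjusted p = 0.121). Without Ang II mice 2 and 5 the Kl value was −0.14 (adjusted p = 0.460). Kl overlapped between the groups, since Ang II mouse 1, at 171 FPKM, was below QDG mice 1 and 4.

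Cyp27b1 was at 16.8 ± 7.45 FPKM in QDG against 33.1 ± 21.01 FPKM in the Ang II group (SD, n = 5 each), with a log2 fold change of −0.82 (SE 0.39, limma adjusted p = 0.318). Without Ang II mice 2 and 5 it was −0.18. Trpv5 had −0.38 (95% confidence interval −0.78 to 0.029), Calb1 −0.33 (−0.83 to 0.18), Cyp24a1 −0.22 (−1.11 to 0.66) and S100g −0.11 (−0.71 to 0.48), all on the log2 scale. These intervals include 0 and also changes of the size seen in Pth1r. Without Ang II mice 2 and 5, Trpv5 had −0.070, Calb1 −0.025 and Cyp24a1 −0.068.

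In QDG vs. Control, which shares mice with both other comparisons, 0 of 8 members were called by limma, against 0.129% of all genes, and 1 had an unadjusted p under 0.05, against 14.4%. That member was Cyp24a1, with a log2 fold change of −1.31 (SE 0.41, limma adjusted p = 0.175, two-sided exact permutation p = 0.00794). It was at 20.8 ± 9.03 FPKM in QDG and 50.4 ± 16.1 FPKM in Control (SD, n = 5 each), with no overlap, where 3.64% of all genes had groups that did not overlap, and it was the 1 member past the study's threshold, against 0.727% of all genes. Cyp27b1 had a log2 fold change of 0.65 (95% confidence interval −0.19 to 1.49, adjusted p = 0.470), with QDG mice 4 and 5 inside the Control range and the other 3 above it. Pth1r had 0.012 (−0.15 to 0.17).

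**Figure D4:**
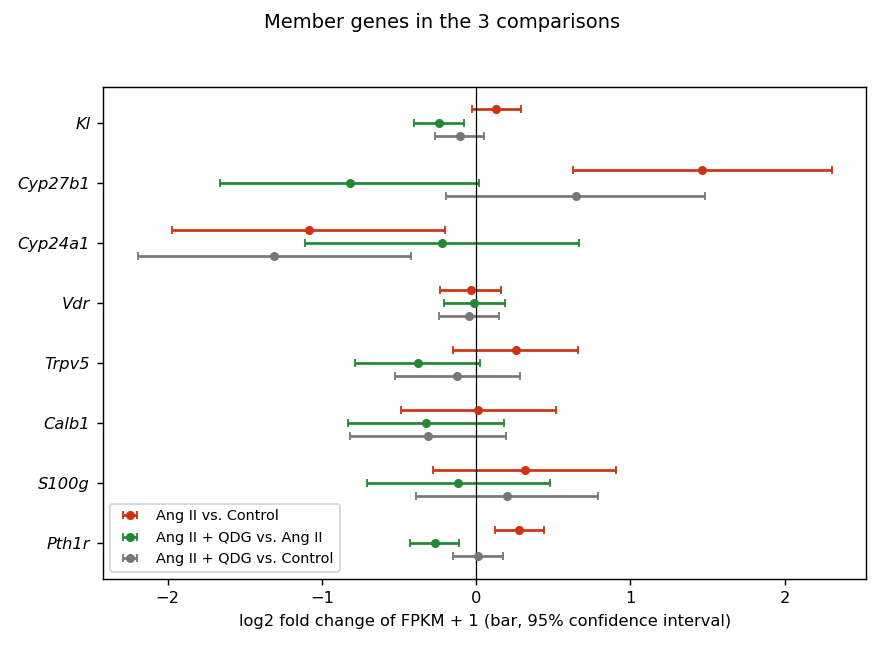
Log2 fold change of FPKM + 1 (horizontal) with its 95% confidence interval for each tested member in the 3 comparisons. In Ang II vs. Control the intervals of Cyp27b1 (0.63 to 2.31), Pth1r (0.12 to 0.44) and Cyp24a1 (−1.97 to −0.20) exclude 0, and in QDG vs. Ang II those of Pth1r and Kl do.

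The other genes of these pathways were taken from 4 lists with 70 genes, of which 57 were listed and 53 tested. In Ang II vs. Control 1 of 53 genes rose and 0 fell by the adjusted test, against 5.94% of all tested genes. In QDG vs. Ang II 1 rose and 0 fell, against 1.81%, and in QDG vs. Control 0 were called by limma, against 0.129%. Before adjustment 11, 10 and 7 of the 53 had a p under 0.05 in these comparisons, against 22.7%, 16.4% and 14.4% of all genes. The median log2 fold changes over the 53 genes were 0.059, −0.036 and 0.053 in these comparisons, beside 0.083, −0.019 and 0.059 over all genes.

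Of 10 tested genes of FGF23 and klotho signalling, Fgfr2, another FGF receptor, was the 1 that rose in Ang II vs. Control. It was at 2.03, 0.0379, 0, 2.24 and 0 FPKM in Control mice 1 to 5, at 4.36, 2.66, 2.42, 3.05 and 3.19 FPKM in Ang II mice 1 to 5, and at 1.23, 3.44, 3.48, 3.50 and 2.50 FPKM in QDG mice 1 to 5. Every Ang II mouse was above every Control mouse, but the Control values fell into a low and a higher set, and the listed 0 values may be failed estimates. Its log2 fold change was 1.36 (SE 0.35, limma adjusted p = 0.0370), and 0 pathway genes were called in this comparison without Control mouse 3 or 5, without Ang II mouse 2, 3 or 5, or without Ang II mice 2 and 5 together, where Fgfr2 had 1.40. Galnt3, whose enzyme glycosylates FGF23, had −0.27 in QDG vs. Ang II (adjusted p = 0.192), and Fgfr4, a receptor that can pair with klotho, had 0.50 (adjusted p = 0.280).

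Of 16 tested genes of vitamin D metabolism and receptor partners, 0 were called by limma in any comparison, with 3, 2 and 1 before adjustment at a p under 0.05 for Ang II vs. Control, QDG vs. Ang II and QDG vs. Control, against 22.7%, 16.4% and 14.4% of all genes. Amn, which anchors cubilin, a partner in the uptake of filtered vitamin D-binding protein, was at 88.4 to 102 FPKM in Ang II and 69.3 to 87.8 FPKM in QDG, without overlap (log2 fold change −0.27, limma adjusted p = 0.0709). Lrp2, the uptake receptor megalin, had −0.17 in QDG vs. Control (adjusted p = 0.265). Rxra, the retinoid receptor that pairs with Vdr, had 0.17 in Ang II vs. Control (adjusted p = 0.149), and 0.11 without Ang II mice 2 and 5.

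Of 18 tested genes of calcium transport and sensing, 0 were called by limma, with 3, 5 and 2 at an unadjusted p under 0.05 in the same order of comparisons, against the same shares of all genes. Atp2b4, a plasma membrane calcium pump, was at 1.79 to 2.92 FPKM in Control and 3.20 to 5.96 FPKM in Ang II, without overlap (log2 fold change 0.59, limma adjusted p = 0.0579), with the highest values, 5.91 and 5.96 FPKM, in Ang II mice 2 and 5 and a log2 fold change of 0.35 without them. Klk1, the tissue kallikrein of the connecting tubule, was at 1425 to 1886 FPKM in Control and 1918 to 3141 FPKM in Ang II (0.54, adjusted p = 0.0819), and its log2 fold change was 0.32 without Ang II mice 2 and 5, at 3141 and 2841 FPKM. Klk1 belongs to a family of near-identical genes, so the share of reads given to it is uncertain. Cldn16, a tight junction protein of the thick ascending limb, had 0.32 in QDG vs. Control (adjusted p = 0.198).

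Of 9 tested genes of phosphate transport, Enpp1, an enzyme that makes pyrophosphate, rose in QDG vs. Ang II. It was at 8.31, 8.14, 8.31, 6.998 and 8.59 FPKM in Control mice 1 to 5, at 6.61, 7.25, 6.50, 7.48 and 6.99 FPKM in Ang II mice 1 to 5, and at 9.13, 9.68, 9.60, 8.90 and 7.64 FPKM in QDG mice 1 to 5. Every QDG mouse was above every Ang II mouse, and the Control mice lay across both. The log2 fold change was 0.32 (SE 0.075, limma adjusted p = 0.0436). In this comparison 0 pathway genes were called without any one of Control mice 1 to 3, any one of the Ang II mice or any one of QDG mice 2 to 4, and 0 without Ang II mice 2 and 5 together, where Enpp1 had 0.34.

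Slc34a1, the main phosphate transporter of the proximal tubule and a target of both FGF23 and parathyroid hormone, was at 1923 to 2072 FPKM in Control and 2113 to 3065 FPKM in Ang II, without overlap. Ang II mice 2 and 5 were at 3065 and 2941 FPKM and the other Ang II mice at or under 2212 FPKM. Its log2 fold change was 0.29 (limma adjusted p = 0.125), and 0.10 without those mice. Slc34a1 is also 1 of the 10 proximal tubule markers. Slc9a3r2, a scaffold protein of apical membranes, had 0.37 in Ang II vs. Control (adjusted p = 0.0571), and Xpr1, a phosphate exporter, was at 21.1 to 23.0 FPKM in Control and 18.6 to 21.1 FPKM in Ang II (−0.13, adjusted p = 0.129).

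**Figure D5:**
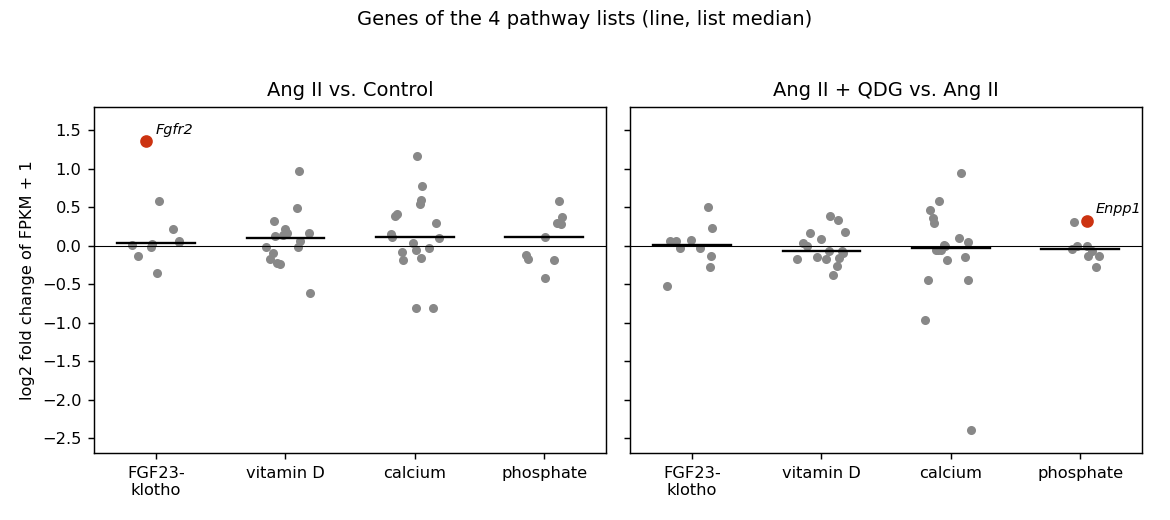
Log2 fold change of FPKM + 1 (vertical) for the tested genes of the 4 pathway lists in 2 comparisons, with list medians as lines and genes at a limma adjusted p under 0.05 in red. Only Fgfr2 (1.36) and Enpp1 (0.32) are red, and the medians lie near 0.

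The genes whose pattern over the 15 mice was most like each member's are given by Pearson's r of log2(FPKM + 1), among 7282 genes with a mean of at least 5 FPKM, as a description. Among the highest were Slc34a1 (0.90) for Cyp27b1, Atf4 (0.90) and Cpox (0.90) for Pth1r, Car15 (0.89) and Defb1 (0.87) for Calb1, and Atp5g1 (0.84) and Jagn1 (0.82) for Kl. Among the other members they included Raver1 (0.81) and Igfbp4 (0.77) for S100g, Fahd2a (0.75) and Usp38 (0.72) for Vdr, and Pzp (0.74) and Hsp90ab1 (0.73) for Cyp24a1. Trpv5 was below the minimum mean. These values include the differences between groups and between Ang II mice 2 and 5 and the rest.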

How the data were processed

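RNA of 15 mouse kidneys was depleted of rRNA and sequenced on an Illumina platform (paired ends). A poly(A) step is also described by the authors, which was not settled here. Genome build mm10 and limma are named in the submitters' processing notes, and the aligner and assembler are not given in the sources used here. For each mouse the deposited file gives a single value per transcript, which was taken as FPKM for the following reason. Once multiplied by the annotated transcript length, 98.7% to 98.8% of the values under 200 reads were whole multiples, within 0.1 read, of 1 constant per mouse. Unnamed assembled transcripts were left out of gene sums.

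Transcript identifiers were mapped to symbols with GENCODE mouse release 21, for 31254 of 31301 Ensembl transcripts. Each Control mouse had 41477 listed transcripts, assembled ones included, and each mouse of the infused groups had 42310. FPKM was summed per gene over transcripts listed in all 15 mice. Genes that reached 1 FPKM in 5 or more mice were tested on log2(FPKM + 1), a scale that understates changes of low genes, with limma 3.58.1 (R 4.3.3, trended variance) in 1 model of 15 mice and 3 group means with 12 residual degrees of freedom. P-values were Benjamini-Hochberg adjusted over all tested genes, with a threshold of 0.05. The study's threshold was a fold of 2 and an unadjusted p under 0.05. The scripts were tested on simulated data. Two-sided exact permutation tests covered single genes.

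All mice were separate animals. The members and gene lists were chosen with earlier results of these data known. Pathway genes were named where the adjusted p was under 0.05, or by the smallest p up to 3 per list, and the 2 genes most like each member were named by Pearson's r, except that a few genes, 1 of them among those most like Cyp27b1, are not reported here. Alternatives covered the pseudocount, filters, scalings, transcripts summed, the variance model and left-out mice. The alternative without Ang II mice 2 and 5 together was chosen after seeing the data. Promoter sequences came from RefSeq.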

Additional observations from a re-analysis of the deposited data

Results flagged for a closer look

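Vdr in the Ang II group had 1 mouse set apart from the others. Ang II mouse 2 was at 68.8 FPKM, the next highest Ang II mouse was at 60.1 FPKM, and on the scale of log2(FPKM + 1) this gap was 0.829 of the range of the group. In all 24 groups of 5 values were examined, 8 genes in 3 groups, and chance alone sets apart about 1 group in 20. Without this mouse the log2 fold change of Vdr between the Ang II + QDG and Ang II groups was 0.031.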

How the results depend on the processing

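The number of members called in Ang II vs. Control was 2 as reported. It was 0 with quantile normalization, with median scaling, with only the groups compared in the fit, with protein_coding transcripts summed, and without both Ang II mice 2 and 5 (chosen after seeing the data), and it was 1 when scaled to annotated nuclear transcripts and without the variance trend. With 1 mouse left out it was 0 to 2. The members past the study's threshold in Ang II vs. Control numbered 2 as reported, 1 without both mice and 1 to 2 with 1 mouse left out, and in QDG vs. Ang II they numbered 0 as reported and 0 to 1 with 1 mouse left out. Member transcripts called in Ang II vs. Control numbered 0, but 2 when at least 1 FPKM was required in all 5 mice of a group, where fewer transcripts were tested, and 0 to 1 with 1 mouse left out. Pathway genes called in Ang II vs. Control numbered 1, but 0 with a pseudocount of 0.01, with only the groups compared, with all listed transcripts summed and without both mice, 2 with quantile normalization, and 0 to 2 with 1 mouse left out. In QDG vs. Ang II they numbered 1, but 0 without a filter, with only the groups compared and without both mice, and 0 to 1 with 1 mouse left out. The cause was not tested.

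Signs turned for small log2 fold changes, none of which was called. In Ang II vs. Control, Calb1 was −0.053 with quantile normalization, −0.076 with median scaling, −0.0011 when scaled to annotated nuclear transcripts, −0.29 without both mice and −0.11 to 0.16 with 1 mouse left out, Vdr was −0.077 to 0.021 with 1 mouse left out, and Trpv5 and S100g were −0.051 and −0.046 without both mice. In QDG vs. Ang II, Vdr was 0.055 with quantile normalization, 0.0014 with median scaling, 0.029 without both mice and −0.076 to 0.034 with 1 mouse left out, S100g was 0.25 without both mice and −0.26 to 0.049 with 1 mouse left out, and Cyp24a1 was −0.44 to 0.074 with 1 mouse left out. In QDG vs. Control, Pth1r was −0.067 with median scaling, −0.00027 when scaled to annotated nuclear transcripts and −0.037 to 0.049 with 1 mouse left out, and Vdr was −0.11 to 0.0099 with 1 mouse left out.

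In Ang II vs. Control Cyp27b1 stayed higher in all 13 other settings, the exact test among them, and in 15 fits with 1 mouse left out, at log2 fold changes of 0.83 to 1.74, and Pth1r at 0.19 to 0.32, but the call was lost in 6 and 11 of these for Cyp27b1 and in 8 and 10 for Pth1r. Exact tests alone gave an adjusted p of 0.10 for both, the smallest that the design allowed here. Median scaling and quantile normalization centre the changes, so they bear on small shifts such as that of Pth1r. No paired analysis applied, because the groups held separate mice. The labels give the mice no replicate numbers, and the numbers used here only name them. How depth limits single genes was not tested.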
